A study of Mus musculus with 12 samples.

Results

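The genes described here encode mTOR, the subunits of its complexes and the proteins next to them in the pathway: Deptor, Mtor, Rptor, Rictor, Mlst8, Akt1s1, Tsc1, Tsc2, Ddit4 and Rheb. They were taken by gene symbol from a merged table of read counts, where they are 10 of 55471 genes, and all 10 were among the 18228 genes with enough reads to be tested. The set was chosen by the IFN-β comparison of these libraries, in which Deptor was already known to be much lower, so the IFN-β values of these genes are given as a description, without a test. The knockdown comparisons were tested.

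mTOR is a serine/threonine kinase that joins nutrient and growth factor signals to protein synthesis, autophagy and metabolism. It works in a pair of complexes: mTORC1, built around RAPTOR (encoded by Rptor), and mTORC2, built around RICTOR. mLST8 is a subunit of both, DEPTOR binds mTOR and inhibits both, and PRAS40 (encoded by Akt1s1) inhibits mTORC1. RHEB, a small GTPase, switches mTORC1 on at the lysosome, TSC1 and TSC2 form a GTPase-activating complex that keeps RHEB off, and REDD1 (encoded by Ddit4) is a stress-induced protein that acts through that complex. In dendritic cells (DCs), which sample their surroundings and present antigen, the pathway is known for its part in the metabolic change that follows activation.

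The study asked how the transcriptional co-activator PGC-1β, encoded by Ppargc1b, shapes the metabolism of DCs. Bone marrow of adult female C57BL/6 mice was grown with GM-CSF, transduced with a retrovirus that carried either an shRNA to Ppargc1b (shPpargc1b) or a control shRNA to firefly luciferase (shControl), and sorted on the human CD8 reporter of the vector. The cells were left unstimulated or received IFN-β, an antiviral cytokine, for 6 h, which gave 4 groups of 3 libraries: shControl, shPpargc1b, shControl with IFN-β and shPpargc1b with IFN-β. All 4 groups therefore carried the vector and an shRNA, and the mRNA of Ppargc1b was lowered and not removed. The labels do not say whether the 3 libraries of a group came from separate mice or cultures, so the p-values measure only the spread between these libraries, which may be technical.

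The libraries held 49919648 to 77726101 counted reads. Ppargc1b itself was measured at 34.5 ± 1.94 CPM (reads of a gene per 1000000 reads of its library, with the library sizes scaled by TMM, given as mean ± SD, n = 3) in unstimulated shControl DCs and 19.4 ± 0.851 in shPpargc1b DCs (log2 fold change -0.83 ± 0.10, SE, edgeR adjusted p = 3.25e-05), and with IFN-β at 27.8 ± 3.93 and 18.7 ± 2.83 (-0.57 ± 0.11, edgeR adjusted p = 0.000945). The summed CPM of 8 dendritic cell markers was 3440 to 5075 in every library, although Cd209a had only 53 reads over all 12 libraries. Markers of erythroid cells summed to at most 0.147 CPM, with Hba-a2 at 0 reads, and markers of lymphocytes to at most 1.05 CPM. In these bulk libraries, fewer cells of a type and less RNA per cell cannot be told apart.

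DEPTOR, the inhibitor shared by both complexes, had the transcript with the widest range of the 10. Deptor (ENSMUSG00000022419; GRCm38 chromosome 15, 55112317 to 55259271, forward strand) was at 69.0, 70.9 and 69.6 CPM in the unstimulated shControl libraries. In the unstimulated shPpargc1b libraries it was at 44.5, 50.9 and 48.0 CPM. The 3 knockdown libraries all lay below the 3 control libraries. With IFN-β, the shControl libraries held 19.9, 16.7 and 16.7 CPM of Deptor. The shPpargc1b libraries held 17.0, 12.2 and 14.1 CPM with IFN-β. Every IFN-β library lay below every unstimulated library, and among the IFN-β libraries the 2 genotypes overlapped. Gm9920, an antisense gene that shares 303 bases with the exons of Deptor, had 32 to 119 reads per library where Deptor had at least 695, and no source used here gives the strand setting of the counting.

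**Figure D1:**
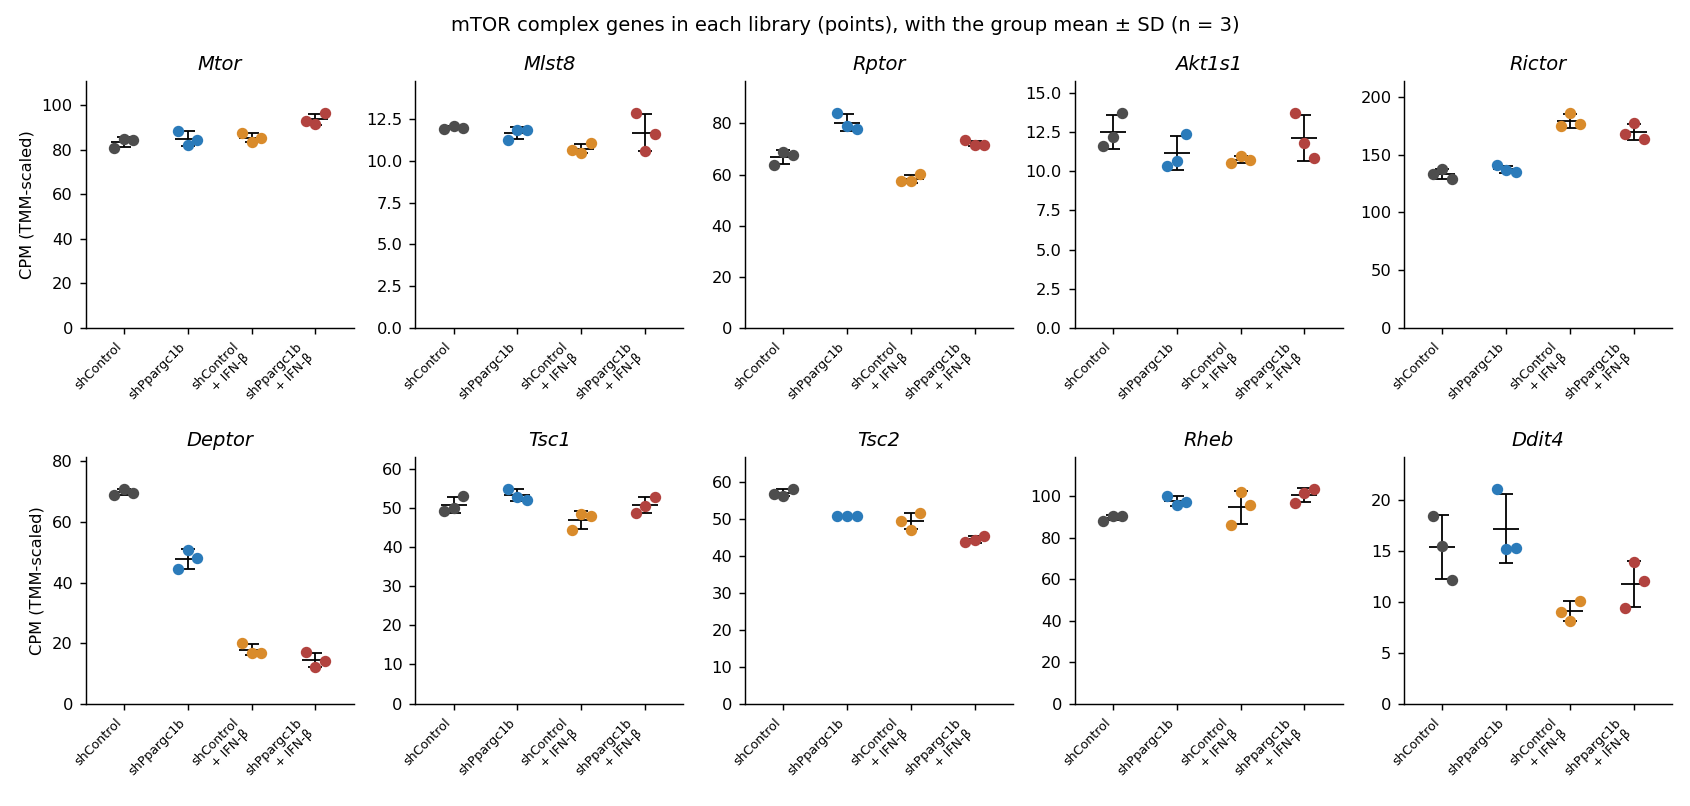
CPM (TMM-scaled, linear axis from 0) of the 10 genes, 1 panel per gene, in the 3 libraries of each of the 4 groups (points), with group means ± SD (n = 3). Deptor stepped down from 69.0 to 70.9 CPM in unstimulated shControl libraries to 12.2 to 17.0 CPM in shPpargc1b libraries with IFN-β, while Mtor stayed between 80.8 and 96.3 CPM in all 12 libraries.

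Differences below are log2 fold changes ± SE, with 95% intervals, unless another unit is given. Knockdown of Ppargc1b was accompanied by less Deptor and Tsc2 mRNA and more Rptor mRNA in unstimulated DCs. Of the 10 genes, 3 passed an adjusted p of 0.05 (edgeR quasi-likelihood F-test, Benjamini-Hochberg over all 18228 genes), where 23.6% of all genes tested were called. Of these 3, 1 was higher (12.4% of all genes) and 2 were lower (11.1%). With IFN-β, 4 of the 10 passed, where 24.2% of all genes tested were called, 2 higher (11.5%) and 2 lower (12.7%). The genes called were Deptor, Tsc2 and Rptor in both states and, with IFN-β, Mtor as well. The median log2 fold change of the 10 genes was 0.04 in unstimulated cells and 0.12 with IFN-β, beside -0.00 and -0.01 over all genes tested. The markers of other cells moved with the knockdown: the summed CPM of 7 neutrophil markers ranged from 35.6 to 66.6 over unstimulated shControl and from 70.9 to 120 over unstimulated shPpargc1b libraries, and from 29.8 to 68.4 and 63.6 to 113 with IFN-β, with 2 of the 7 called higher in each state and none at 0. Of 7 dendritic cell markers tested, 4 were called higher with the knockdown in unstimulated cells and 5 with IFN-β. Of 8 macrophage markers, 1 was called higher and 2 lower in unstimulated cells, and 1 higher and 3 lower with IFN-β. Of 7 mast cell or basophil markers, 2 were called higher in unstimulated cells and 1 with IFN-β. Their summed CPM ranged from 2.87 to 10.6 in shControl and 7.44 to 13.4 in shPpargc1b libraries without IFN-β, and from 7.47 to 15.5 and 10.7 to 19.1 with it. The summed CPM of 5 eosinophil markers overlapped between genotypes, at 33.5 to 63.9 and 23.6 to 44.6 without IFN-β and at 30.8 to 60.4 and 22.5 to 44.8 with it. The part of any of these lists in the differences of the mTOR genes was not tested.

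Deptor fell to 68.5% of its shControl level in unstimulated shPpargc1b DCs (log2 fold change -0.55 ± 0.09, SE, 95% interval -0.74 to -0.36, edgeR adjusted p = 0.000329). In IFN-β-treated DCs the difference was -0.30 ± 0.10 (interval -0.51 to -0.09, edgeR adjusted p = 0.0372), but the libraries overlapped and the call was lost when any library other than shControl IFN-β replicates 2 and 3 or shPpargc1b IFN-β replicate 1 was left out (adjusted p up to 0.141). The call was also lost when the libraries were scaled by their totals alone (adjusted p = 0.0649) or when only the IFN-β libraries were fitted (0.117). The knockdown differences with and without IFN-β were 0.25 ± 0.13 apart on the log2 scale (interval -0.04 to 0.53, edgeR adjusted p = 0.575 for the interaction), so a difference between the 2 states was not detected.

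RAPTOR is the subunit that recruits the substrates of mTORC1. Rptor (ENSMUSG00000025583; GRCm38 chromosome 11, 119602905 to 119899576, forward strand) was at 63.7, 68.9 and 67.6 CPM in unstimulated shControl libraries. It was at 84.0, 79.0 and 77.7 CPM in unstimulated shPpargc1b libraries. With the knockdown Rptor was therefore higher in 3 of 3 libraries, a log2 fold change of 0.27 ± 0.04 (interval 0.17 to 0.36, edgeR adjusted p = 0.000319). With IFN-β, Rptor was at 57.5, 57.4 and 60.2 CPM in shControl and at 73.4, 71.7 and 71.7 CPM in shPpargc1b libraries. The groups again did not overlap (0.31 ± 0.04, interval 0.21 to 0.40, edgeR adjusted p = 0.000102). The interaction was 0.04 ± 0.06 (interval -0.09 to 0.17), and both calls held in all 19 alternative fits tried.

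TSC2 carries the GTPase-activating domain that acts on RHEB, and TSC1 stabilises it. Tsc2 (ENSMUSG00000002496; GRCm38 chromosome 17, 24595816 to 24632630, reverse strand) was at 56.7, 56.3 and 58.1 CPM in unstimulated shControl libraries and at 50.7, 50.7 and 50.8 CPM in shPpargc1b libraries. With IFN-β the values were 49.5, 47.1 and 51.6 CPM in shControl and 43.7, 44.2 and 45.4 CPM in shPpargc1b libraries. In neither state did the genotypes overlap, and Tsc2 fell by 0.17 ± 0.04 (edgeR adjusted p = 0.00767) and by 0.15 ± 0.04 (edgeR adjusted p = 0.0149) on the log2 scale. Neither call held in a fit without the filter on low counts (adjusted p = 0.105 and 0.140), and the second was lost also when only the IFN-β libraries were fitted (0.0715) or without shControl IFN-β replicate 3 (0.0646). Tsc2 shares 693 bases, 7.20% of its exons, with Pkd1 on the opposite strand, which had 2236 to 5685 reads per library. Pkd1 differed with the knockdown by -0.09 ± 0.05 in unstimulated cells and by -0.02 ± 0.05 with IFN-β, and neither passed (edgeR adjusted p = 0.200 and 0.865). Tsc1 did not pass either, at 0.07 ± 0.05 (interval -0.03 to 0.17) and 0.11 ± 0.05 (interval 0.00 to 0.22, edgeR adjusted p = 0.126), the second with libraries that did not overlap.

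The kinase gene itself differed little. Mtor (ENSMUSG00000028991; GRCm38 chromosome 4, 148448611 to 148557683, forward strand) was at 80.8, 84.7 and 84.4 CPM in unstimulated shControl and 88.4, 81.9 and 84.4 CPM in unstimulated shPpargc1b libraries, which overlapped (0.03 ± 0.04, interval -0.06 to 0.11). With IFN-β it was at 87.6, 83.5 and 85.1 CPM in shControl and 92.7, 91.6 and 96.3 CPM in shPpargc1b libraries. These did not overlap, and Mtor rose by 0.13 ± 0.04 (interval 0.05 to 0.22, edgeR adjusted p = 0.0277). This call did not hold without the filter on low counts (adjusted p = 0.0809) or when any 1 of the 6 IFN-β libraries was left out (adjusted p up to 0.176).

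The other members did not pass the test with the knockdown in either state, but calls of Ddit4 and Rheb depended on the processing. Without the filter on low counts Ddit4 passed with IFN-β (0.39, edgeR adjusted p = 0.000492). Rheb passed in unstimulated cells when only the groups compared were fitted (edgeR adjusted p = 0.0401) and without shControl IFN-β replicate 1 (edgeR adjusted p = 0.0382). Rictor, the mTORC2 subunit, had differences of 0.04 ± 0.04 (interval -0.05 to 0.13) and -0.08 ± 0.04 (interval -0.17 to 0.01). Rheb was 0.12 ± 0.05 higher in unstimulated shPpargc1b cells, with libraries that did not overlap (interval 0.01 to 0.23, edgeR adjusted p = 0.101), and 0.09 ± 0.05 higher with IFN-β (interval -0.02 to 0.20). Ddit4 varied most among replicates, and its intervals were the widest: -0.19 to 0.50 in unstimulated cells and 0.01 to 0.74 with IFN-β (edgeR adjusted p = 0.131 in the second). Akt1s1, at 10.4 to 13.7 CPM over all libraries, had differences of -0.16 ± 0.10 (interval -0.37 to 0.04) and 0.17 ± 0.10 (interval -0.03 to 0.38). Mlst8, at 10.5 to 12.9 CPM, had differences of -0.04 ± 0.07 (interval -0.19 to 0.12) and 0.12 ± 0.07 (interval -0.04 to 0.28). Mlst8 shares 997 bases, 22.5% of its exons, with Bricd5 on the opposite strand. Bricd5 had 7 to 40 reads per library where Mlst8 had at least 494. None of the 10 genes passed the interaction test in edgeR, where 0.73% of all genes did, and DESeq2 likewise called 0. At an unadjusted p under 0.05 there was 1, Akt1s1, with 0.34 ± 0.14 (interval 0.05 to 0.62, edgeR adjusted p = 0.379).

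**Figure D2:**
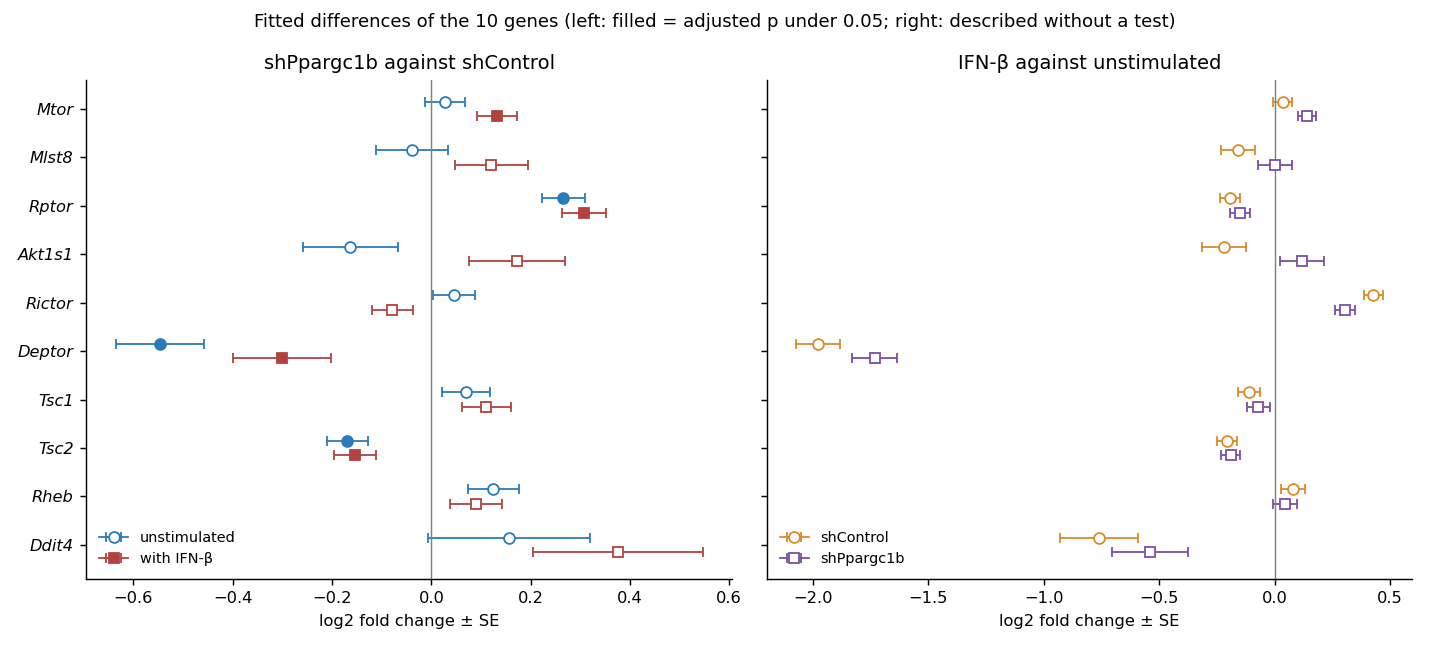
Log2 fold change ± SE (x axis) of each of the 10 genes, from a single edgeR fit of the 12 libraries, for the knockdown with and without IFN-β (left; filled symbols passed an adjusted p of 0.05) and for IFN-β in either genotype (right; described without a test). With the knockdown Rptor lay at 0.27 and 0.31 and Deptor at -0.55 and -0.30, and with IFN-β Deptor lay at -1.98 and -1.73, apart from the other genes.

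The IFN-β differences of the members are described next. They come from the comparison that led to the choice of these genes. Deptor in IFN-β-treated cells was at 25.4% of its unstimulated level in shControl DCs (log2 fold change -1.98 ± 0.10) and at 30.1% in shPpargc1b DCs (-1.73 ± 0.10). Among the 18228 genes, 51 had a lower log2 fold change than Deptor in shControl and 45 in shPpargc1b cells, and among the 8854 genes with a mean log2 CPM of at least 3 only 1 did in each. Gm9920, the antisense neighbour, was itself lower with IFN-β on the log2 scale, by 0.91 ± 0.24 in shControl and by 1.07 ± 0.24 in shPpargc1b cells.

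Ddit4, the stress-induced inhibitor, was the second of the 10 in size of difference. It was at 18.5, 15.5 and 12.2 CPM in unstimulated shControl and at 8.99, 8.11 and 10.1 CPM in IFN-β-treated shControl libraries. In shPpargc1b cells it was at 21.1, 15.2 and 15.3 CPM unstimulated and at 9.36, 13.9 and 12.03 CPM with IFN-β. Its IFN-β libraries lay below the unstimulated ones in both genotypes, with log2 fold changes of -0.76 ± 0.17 and -0.54 ± 0.17.

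Rictor differed in the other direction. It was at 133, 137 and 129 CPM in unstimulated shControl libraries and at 175, 186 and 177 CPM with IFN-β. In shPpargc1b libraries it was at 141, 136 and 135 CPM unstimulated and at 168, 177 and 164 CPM with IFN-β. Every IFN-β library was above every unstimulated one, with log2 fold changes of 0.43 ± 0.04 and 0.30 ± 0.04. These were 0.19 and 0.10 when libraries were scaled by their totals alone, a scaling that also moved the median of all genes from -0.03 to -0.27 in shControl and from -0.02 to -0.22 in shPpargc1b cells.

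Rptor and Tsc2 were lower with IFN-β in both genotypes, without overlap between the libraries. Rptor was lower by 0.19 and 0.15 and Tsc2 by 0.21 and 0.19 on the log2 scale, in shControl and shPpargc1b cells in that order. With library totals alone Rptor was at -0.43 and -0.35 and Tsc2 at -0.45 and -0.39. Pkd1, which overlaps Tsc2, was lower by 0.88 ± 0.05 and 0.81 ± 0.05. Mtor (0.04 and 0.14) and Rheb (0.08 and 0.04) were slightly higher with the TMM scaling and lower with library totals alone (-0.20 and -0.06 for Mtor, -0.16 and -0.16 for Rheb), which in each case was above the shifted median of all genes. Akt1s1 was at -0.22 and 0.12, Tsc1 at -0.11 and -0.07, and Mlst8 at -0.16 and 0.00. With library totals they were at -0.46 and -0.09, at -0.35 and -0.27, and at -0.40 and -0.20. In shControl cells the libraries of 8 of the 10 genes did not overlap between treatments, where this held for 56.7% of all genes tested, with 1 higher (27.2% of all genes) and 7 lower (29.4%). In shPpargc1b cells it was 6 of 10, where it held for 50.1%, with 2 higher (24.7%) and 4 lower (25.4%). Markers of macrophages moved with IFN-β too: the summed CPM of 8 of them ranged from 2142 to 2272 without and from 2749 to 2962 with IFN-β in shControl libraries, and from 2183 to 2243 and 2560 to 2701 in shPpargc1b libraries, with none at 0. Of the 8, 4 were called higher in each genotype and 1 lower in shPpargc1b cells. Over all genes tested, 48.2% were called in shControl and 42.6% in shPpargc1b cells. Fcgr1, an Fc receptor singled out after its values were seen, ranged from 35.1 to 52.2 CPM without and from 281 to 357 CPM with IFN-β. The other 7 together ranged from 2107 to 2229 and 2415 to 2606 CPM in shControl, and from 2136 to 2202 and 2278 to 2395 CPM in shPpargc1b libraries. The part of these markers in the values above was not tested.

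Per kilobase of annotated exon, the scale on which levels of different genes can be set side by side, Rheb was the highest of the 10 in all 4 groups, at 11.6 ± 0.168 to 13.03 ± 0.436 CPM per kilobase. In unstimulated shControl cells Ddit4 (8.76 ± 1.79), Mtor (8.24 ± 0.217), Deptor (7.87 ± 0.113) and Rictor (7.86 ± 0.260) followed, and neighbours in this order overlapped. Tsc2 (5.93), Rptor (4.95), Tsc1 (4.29), Akt1s1 (4.06) and Mlst8 (2.71) came after them, and of these neighbours only Tsc1 and Akt1s1 overlapped. Deptor thus held the 4th place. In unstimulated shPpargc1b cells it was 6th, at 5.38 ± 0.361 CPM per kilobase, below Rptor (5.96 ± 0.247), with libraries that did not overlap those of Rptor but overlapped those of Tsc2 (5.27). With IFN-β it was the lowest of the 10, at 2.001 ± 0.206 in shControl and 1.62 ± 0.272 in shPpargc1b cells, below Mlst8 (2.42 and 2.64) without overlap. Per kilobase of the longest transcript in place of all exons, Deptor was 7th and 8th in the unstimulated groups and 10th in both IFN-β groups. The order of the other genes depended on the length used too. On that scale Rheb (22.1) in unstimulated shControl cells was followed by Rictor (14.3), then Rptor (10.1) and Mtor (9.73), which overlapped. Ddit4 (8.76) was 6th.

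**Figure D3:**
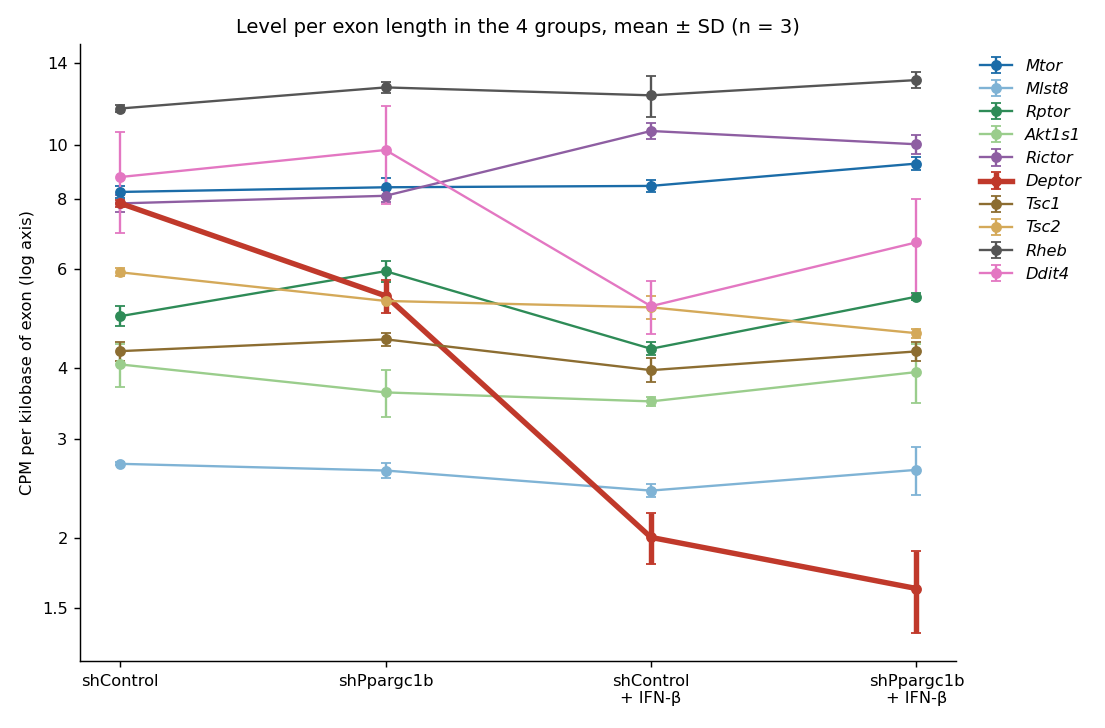
Mean CPM per kilobase of exon ± SD (n = 3; log axis) of the 10 genes in the 4 groups, with lines joining the means of a gene. Deptor, the thick line, went from 7.87 among the upper 5 genes in unstimulated shControl cells to 2.001 and 1.62, under all others, in the IFN-β groups, while Rheb stayed on top at 11.6 to 13.03.

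Ratios within a library do not depend on its scaling. The 5 computed, per kilobase of exon, were chosen after the values had been seen. Deptor over Mtor was 0.955 ± 0.0171 in unstimulated shControl and 0.643 ± 0.0676 in shPpargc1b libraries, and 0.237 ± 0.0190 and 0.175 ± 0.0297 with IFN-β. Rptor over Rictor, the defining subunit of mTORC1 over that of mTORC2, was 0.630 ± 0.0299 and 0.734 ± 0.0134 in unstimulated cells and 0.410 ± 0.0202 and 0.536 ± 0.0241 with IFN-β. Tsc2 over Tsc1 was 1.38 ± 0.0333 and 1.17 ± 0.0338, and with IFN-β 1.296 ± 0.0928 and 1.08 ± 0.0231. For each of these 3 ratios the genotypes did not overlap in either state, and the exact two-sided permutation test of 3 libraries against 3 gave p = 0.1, the smallest it can give. Mlst8 over Mtor was 0.328 ± 0.00682 and 0.314 ± 0.0212 in unstimulated cells (exact permutation p = 0.4), and 0.287 ± 0.00945 and 0.285 ± 0.0276 with IFN-β (exact permutation p = 0.9). Akt1s1 over Rptor was 0.821 ± 0.0595 and 0.611 ± 0.0804 in unstimulated cells, without overlap (exact permutation p = 0.1), and 0.807 ± 0.0293 and 0.734 ± 0.0786 with IFN-β, where the genotypes overlapped (exact permutation p = 0.3).

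Upstream sequence was available from RefSeq (GRCm38.p6; 250 bases before to 50 after a gene's start) for 9 of the 10 genes, all except Deptor. The stretches outside exons are shown for the 3 of these genes that were called with the knockdown, Rptor, Tsc2 and Mtor. They are written 5′ to 3′ on the strand of the gene, and the capitals in Mtor mark its match to the STAT motif.
Rptor (chr11:119602655-119602904, forward strand): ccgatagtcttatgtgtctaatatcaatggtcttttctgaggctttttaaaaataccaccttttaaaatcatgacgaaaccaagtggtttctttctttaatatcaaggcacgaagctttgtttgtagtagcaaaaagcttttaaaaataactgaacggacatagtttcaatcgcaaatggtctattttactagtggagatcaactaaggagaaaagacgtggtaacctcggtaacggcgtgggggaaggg
Tsc2 (chr17:24632631-24632679, reverse strand): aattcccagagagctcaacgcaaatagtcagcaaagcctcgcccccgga
Mtor (chr4:148448332-148448581, forward strand): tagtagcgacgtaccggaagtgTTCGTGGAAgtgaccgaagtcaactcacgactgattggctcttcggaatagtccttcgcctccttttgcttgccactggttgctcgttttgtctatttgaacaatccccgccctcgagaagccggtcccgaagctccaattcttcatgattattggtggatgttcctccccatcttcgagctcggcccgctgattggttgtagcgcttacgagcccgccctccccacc
Each 300-base window was searched on both strands for 5 motifs. These were the estrogen-related receptor element (TNAAGGTCA), through which a known partner of PGC-1β binds, the NRF1 site (GCGCA, N, GCGC), the core of the interferon-stimulated response element (GAAA, NN, GAAA), the STAT site (TTCNNNGAA) and the E-box (CACGTG). Of 32851 promoters in the table, 1.28% held the first, 4.60% the second, 3.44% the third, 8.30% the fourth and 7.15% the fifth. In the 9 genes there was 1 match to the STAT motif, in Mtor, and 1 to the E-box, in Rheb. A match is a stretch of letters and not a known binding site, and its absence says only that the letters are not in this window.

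The other genes of the pathway were described from 5 lists of 90 genes, of which 89 were tested: other subunits and relatives, the amino acid and lysosome branch, growth factor and energy inputs, outputs, and the turnover of DEPTOR. In unstimulated cells the knockdown was accompanied by lower levels of 23 and higher levels of 7 of the 89 genes (33.7%, where 23.6% of all genes were called). With IFN-β it was 25 lower and 6 higher (34.8%, where 24.2% were called). IFN-β changed 50 of the 89 genes in shControl cells, 24 higher and 26 lower (56.2%, where 48.2% were called), and 53 in shPpargc1b cells, 25 higher and 28 lower (59.6%, where 42.6% were called). The IFN-β split depends on scaling: with library totals alone, 69 genes passed in each genotype, 12 higher and 57 lower in shControl and 14 higher and 55 lower in shPpargc1b cells. The shares over all genes depend on the filter. With only genes at 1 CPM or more in 3 libraries, IFN-β calls numbered 8229 of 13774 in shControl and 7402 in shPpargc1b cells. Beside these, 52 and 55 pathway genes passed. Knockdown calls were then 4211 unstimulated and 4401 with IFN-β, beside 33 and 31 pathway genes, so an excess in the lists is not established.

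The outputs of mTOR, its substrates and the factors that act after them, held the largest share of calls with the knockdown of the 5 lists. In unstimulated cells 12 of 24 fell and 2 rose (58.3%, where 23.6% of all genes were called, median log2 fold change -0.17, beside -0.00 over all genes), and with IFN-β 10 fell and 2 rose (50%, where 24.2% were called, median -0.12, beside -0.01). Grb10, an adaptor that mTORC1 phosphorylates and that dampens insulin signalling, rose the most, from 1.25 to 3.83 CPM (1.62 ± 0.14) and with IFN-β from 0.991 to 2.52 CPM (1.34 ± 0.15). Eef2k, the kinase that slows translation elongation, fell by 0.63 ± 0.09 in unstimulated cells, as did Pdcd4, a translation inhibitor degraded after S6 kinase phosphorylates it, by 0.38 ± 0.10 (edgeR adjusted p = 0.0124). The call of Pdcd4 was lost without unstimulated shControl replicate 1 (0.0691) or shPpargc1b replicate 2 (0.0581). With IFN-β its mean lay in the other direction, at 19.6 CPM in shControl and 22.9 CPM in shPpargc1b libraries, which overlapped. With IFN-β, Eif4ebp1, the repressor of cap-dependent translation that mTORC1 inactivates, fell by 0.48 ± 0.07 with the knockdown, and Sgk3, a kinase related to AKT, by 0.37 ± 0.05.

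With IFN-β itself, 4 of the 24 outputs rose and 9 fell in shControl cells (54.2%, where 48.2% of all genes were called), and 4 rose and 10 fell in shPpargc1b cells (58.3%, where 42.6% were called). With library totals alone it was 4 and 19, and 4 and 17. Eef2k had the most negative log2 fold change of them in shControl cells, from 9.80 CPM unstimulated to 2.94 CPM with IFN-β (-1.74 ± 0.10, edgeR adjusted p = 7.04e-10), and fell by 1.41 ± 0.10 in shPpargc1b cells. In shControl cells Pdcd4 fell by 0.83 ± 0.10, and Prkca, a protein kinase C that mTORC2 phosphorylates, by 0.81 ± 0.09. In shPpargc1b cells Pdcd4 went from 26.9 to 22.9 CPM and Prkca from 23.3 to 15.5 CPM. There Sgk3 rose by 0.70 ± 0.05 and Lpin1, a phosphatidate phosphatase and mTORC1 substrate, fell by 0.66 ± 0.07. Lpin1 went from 102 to 61.6 CPM in shControl cells as well. Genes were named by rank within a genotype, so being named under 1 genotype does not set a gene apart from the other.

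**Figure D4:**
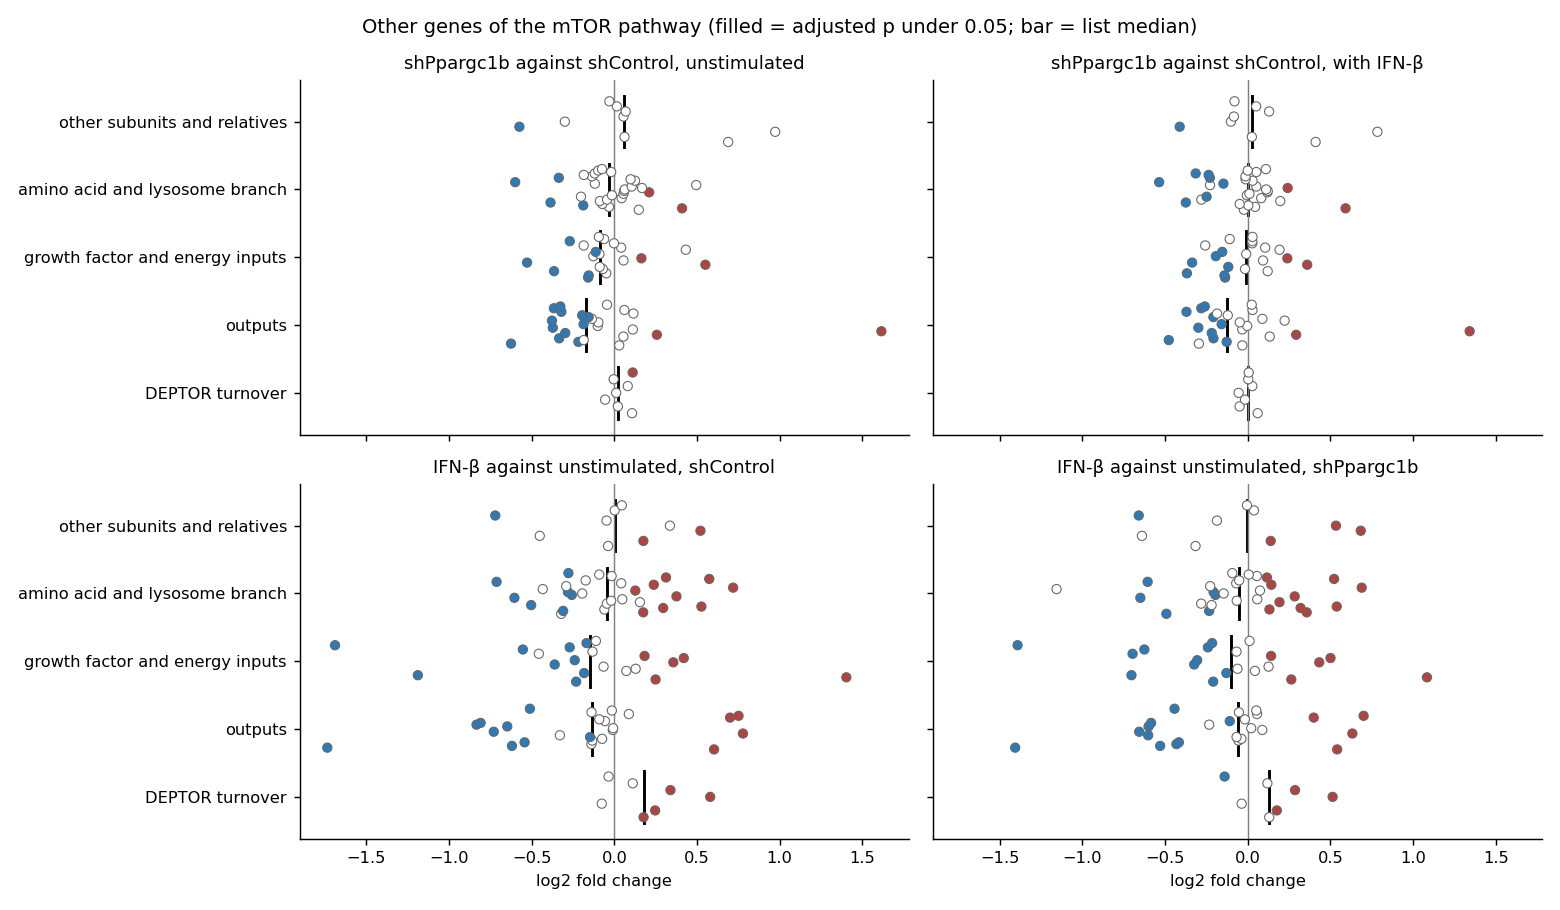
Log2 fold change (x axis) of the 89 tested genes of the 5 pathway lists (rows), each point 1 gene and each bar a list's median, for the knockdown (upper panels) and for IFN-β (lower panels). Filled points passed an adjusted p of 0.05, red higher and blue lower. Among the outputs 12 points are blue and 2 red in the unstimulated knockdown panel, with Grb10 at 1.62.

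Among growth factor and energy inputs, the knockdown was accompanied by 6 falls and 2 rises in unstimulated cells and 7 falls and 2 rises with IFN-β, of 20 tested (40% and 45%, where 23.6% and 24.2% of all genes were called). Of the catalytic subunits of PI3 kinase, Pik3cb rose by 0.55 ± 0.06 and 0.36 ± 0.06, and Pik3cd, the subunit that prevails in leukocytes, fell by 0.53 ± 0.06 and 0.34 ± 0.06. The other catalytic subunits listed differed less. In unstimulated shControl and shPpargc1b cells Pik3ca was at 122 and 115 CPM and Pik3cg at 221 and 229 CPM. With IFN-β they were at 128 and 118 CPM and at 172 and 183 CPM. With IFN-β, Prkag2, a regulatory subunit of AMP-activated kinase, fell from 26.5 to 8.23 CPM in shControl cells (-1.69 ± 0.08) and by 1.39 ± 0.08 in shPpargc1b cells. Irs2, an adaptor of the insulin receptor, fell by 1.19 ± 0.05 and by 0.70 ± 0.05.

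In the amino acid and lysosome branch, which brings mTORC1 to the lysosome through the Rag GTPases, 2 genes rose and 4 fell of 29 with the knockdown in unstimulated cells (20.7%, where 23.6% of all genes were called), and 2 rose and 7 fell with IFN-β (31.03%, where 24.2% were called). Castor2, a relative of the arginine sensor CASTOR1, rose by 0.41 ± 0.06 and 0.59 ± 0.06. Rragd, a Rag GTPase, fell by 0.60 ± 0.15 and 0.54 ± 0.16, and Fnip2, a partner of folliculin, by 0.39 ± 0.05 and 0.37 ± 0.05. The second call of Rragd was lost without shControl IFN-β replicate 1 or 3 or shPpargc1b IFN-β replicate 2 or 3 (adjusted p up to 0.0832). With IFN-β in shControl cells 9 rose and 7 fell (55.2%, where 48.2% of all genes were called), against 4 and 17 with library totals alone. Rragc, the partner of RagA and RagB, rose by 0.72 ± 0.04, while Sesn1, a leucine sensor, fell by 0.71 ± 0.07 and Lamtor4, a subunit of the Ragulator scaffold, by 0.60 ± 0.10.

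Of 9 other subunits and relatives, 1 was called with the knockdown in each state (11.1%, where 23.6% and 24.2% of all genes were called). It was Prr5l, an mTORC2-binding protein, which fell by 0.57 ± 0.06 in unstimulated cells and by 0.41 ± 0.06 with IFN-β. With IFN-β in shControl cells 2 of the 9 rose and 1 fell (33.3%, where 48.2% of all genes were called). In shPpargc1b cells 3 rose and 1 fell (44.4%, where 42.6% were called). Prr5l rose with IFN-β in shControl cells, from 48.1 to 69.0 CPM (0.52 ± 0.06), and Telo2, which takes part in the folding of mTOR, fell by 0.72 ± 0.14.

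Among the 7 genes of DEPTOR turnover, which act on the protein and not on its mRNA, 1 was called with the knockdown in unstimulated cells (14.3%, where 23.6% of all genes were called). It was Skp1a at 0.11 ± 0.04 (edgeR adjusted p = 0.0479), and its call was lost in 12 of the 19 alternative fits. With IFN-β, edgeR called 0 of the 7 with the knockdown, where 24.2% of all genes were called, and 0 had an unadjusted p under 0.05. With IFN-β itself, 4 of the 7 were higher and 0 lower in shControl cells (57.1%, where 48.2% of all genes were called). In shPpargc1b cells 3 were higher and 1 lower (57.1%, where 42.6% were called). With library totals alone 1 was higher and 3 were lower in shControl cells, and 1 and 2 in shPpargc1b cells. Fbxw11, the β-TrCP protein that marks DEPTOR for degradation, rose by 0.58 ± 0.04 in shControl and by 0.51 ± 0.04 in shPpargc1b cells, and both calls held with library totals (0.34 and 0.31). Otub1, a deubiquitinase that stabilises DEPTOR, rose by 0.34 ± 0.06 in shControl cells (edgeR adjusted p = 0.000131), a call that was lost with library totals alone (0.10, adjusted p = 0.154).

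The genes whose pattern over the 12 libraries was nearest to that of Deptor were sought by the root mean square difference in log2 CPM, each gene centred on its own mean. Among 18215 genes with a symbol, the nearest was Eef2k (0.19; Pearson r = 0.99), then Kcnn3, a calcium-activated potassium channel (0.20), Prkag2 (0.24), Cluh, an RNA-binding protein for mitochondrial proteins (0.29), and Thrb, a thyroid hormone receptor (0.29). Only 7 genes came within 0.3. Eef2k and Prkag2 are on the pathway lists above. The log2 fold changes of Eef2k were -0.63 and -0.30 with the knockdown and -1.74 and -1.41 with IFN-β, beside -0.55, -0.30, -1.98 and -1.73 for Deptor. Those of Kcnn3 were -0.70, -0.39, -1.96 and -1.65. Those of Prkag2 were -0.27, 0.03, -1.69 and -1.39, and of Cluh -0.53, 0.01, -1.64 and -1.10, without the knockdown fall with IFN-β. Those of Thrb, at a mean log2 CPM of only -0.15, were -0.35, -0.54, -1.39 and -1.59. Both measures rest on the same 4 groups and take in the IFN-β difference that led to the choice of the set. The Pearson correlation also ignores the size of a change. By it, 330 genes had r of at least 0.95 with Deptor. The 5 with the highest r (Asxl1, Dock1, Mtr, Myo7a and Akap11) included 0 of the 5 above.

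**Figure D5:**
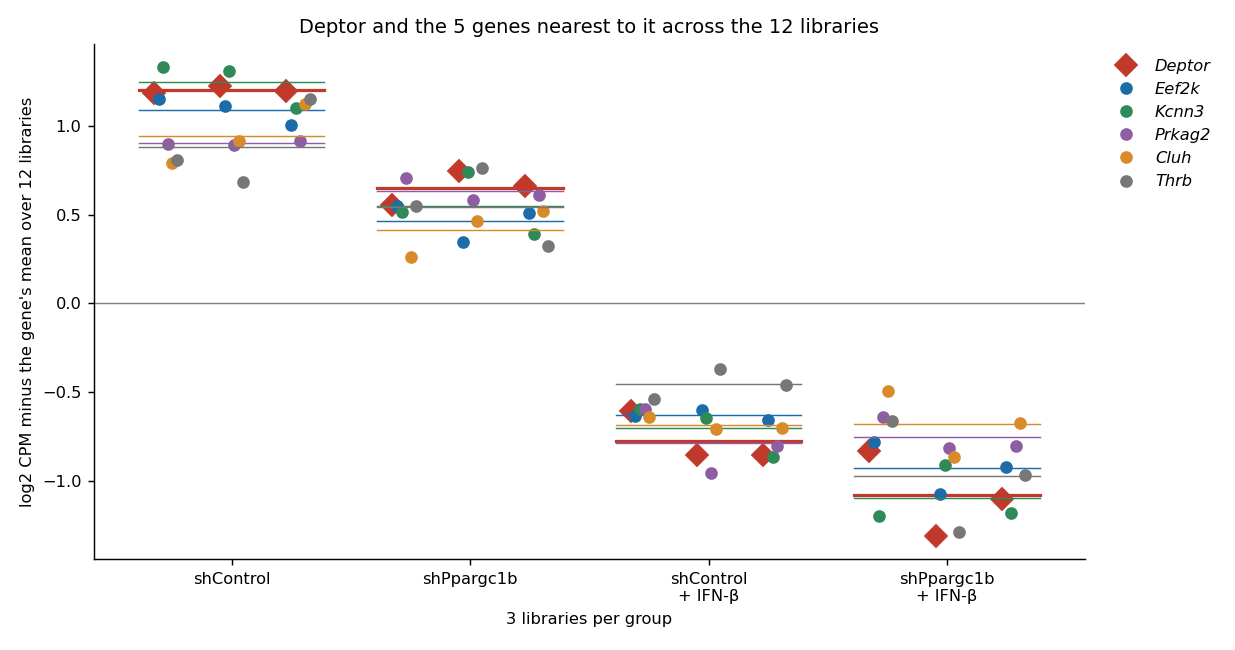
Log2 CPM of Deptor and of the 5 genes nearest to it, each minus its own mean over the 12 libraries (y axis), with 3 libraries per group (points) and the group means (lines). All 6 genes lay above 0 in the unstimulated libraries and below 0 in the IFN-β libraries, and Eef2k, at a root mean square difference of 0.19, was the nearest to Deptor.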

How the data were processed

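RNA of 12 libraries of mouse bone marrow-derived dendritic cells was sequenced after ribosomal RNA removal (KAPA RNA HyperPrep with RiboErase). The deposited values are raw read counts per gene: the authors trimmed reads with Trim Galore (0.6.0 in the submitters' processing notes), aligned them to mm10 with STAR (2.7.8a in those notes, another release in the study's methods) and counted GENCODE M20 genes with STAR's gene counts. The column used for strand is not given in the sources used here.

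Groups came from sample titles, and replicate numbers from the order of the library codes in those titles. Counts were fitted in edgeR 4.0.16 (R 4.3.3) with filterByExpr, TMM scaling and 1 mean per group over all 12 libraries, followed by the quasi-likelihood F-test with Benjamini-Hochberg adjustment over 18228 genes at 0.05. SEs were derived from the F statistic. CPM were TMM-scaled. Exon lengths and positions came from GENCODE M21 (GRCm38). Unstimulated libraries had TMM factors of 1.07 to 1.09, and IFN-β libraries of 0.914 to 0.941. Pearson's r between libraries of a group was 0.991 to 0.994, and none were duplicates (chi-square per gene 8.58 to 21.4). At 49919648 to 77726101 reads a library, the fewest reads of a member were 416. The fit was also run on simulated counts in which few genes were changed, which cannot check the scaling between unstimulated and IFN-β libraries. Alternatives were RLE factors, library totals, other filters, DESeq2 1.42.0, fits of only the groups compared, leaving out each library, and a block of library codes.

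The members and lists were chosen with earlier results of these data known. Up to 3 genes per list and comparison were named: those past the threshold with the largest absolute log2 fold change and a mean log2 CPM of at least 1. The 5 genes most like Deptor were named by root mean square difference.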

Additional observations from a re-analysis of the deposited data

Results flagged for a closer look

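Irs2, an adaptor of the insulin receptor and an input of the mTOR pathway, was the 1 gene of the 89 on the pathway lists for which the knockdown difference was not the same with and without IFN-β by the interaction test (0.49 ± 0.08 on the log2 scale, SE; edgeR adjusted p = 0.00940, where 0.73% of all genes tested were called). The knockdown was accompanied by a fall of Irs2 from 42.0 to 32.7 CPM in unstimulated cells (-0.36 ± 0.05), and with IFN-β the groups were at 18.4 and 20.1 CPM. The interaction of Irs2 passed in all 18 alternative fits that give one, with adjusted p between 1.01e-05 and 0.0414. None of the 10 mTOR genes passed this test.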

How the results depend on the processing

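The labels carry no replicate numbers, so the libraries of a group were numbered in the order of their library codes. The labels state no pairing, and a block of runs of 4 consecutive library codes was fitted as an alternative. The knockdown calls of Rptor in both states and of Deptor in unstimulated cells held in all 19 alternatives. The Deptor call with IFN-β was lost with library totals alone (-0.28; adjusted p = 0.0649), with only the groups compared (-0.28; 0.117) and in 9 of 12 fits that left out a library (range -0.45 to -0.20). The number of the 10 genes called with IFN-β was then 2 with only the groups compared and 2 to 3 with a library left out, the lower number without shControl IFN-β replicate 1 or 3 or shPpargc1b IFN-β replicate 2 or 3. With library totals the IFN-β difference of Deptor was -2.22 in shControl and -1.94 in shPpargc1b cells. Its place by level was 7 and 8 in unstimulated shControl and shPpargc1b cells per longest transcript. Pathway genes with an interaction numbered 2 with RLE factors, 5 with all genes counted at least once, 3 with DESeq2, 4 with the library code block and 1 to 3 with a library left out, and fits of only the groups compared give none. The 5 genes most like Deptor shared 0 with those by Pearson correlation.

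Differences that changed sign were near 0, apart from scaling. With a library left out, the unstimulated knockdown difference ranged from -0.014 to 0.31 for Ddit4 and from -0.00095 to 0.052 for Mtor, both below 0 only without shPpargc1b replicate 1. The interaction ranged from -0.11 to 0.0038 for Rheb, from -0.012 to 0.081 for Tsc1 and from -0.034 to 0.044 for Tsc2, and for Rheb was 0.0021 with library totals. With library totals the IFN-β difference was -0.064 for Mapkap1 in shControl and -0.027 for Csnk1a1 in shPpargc1b cells. Among tested differences of the 10 genes over all alternatives, 526 kept direction and call, 22 lost the call, 3 gained one and 9 changed sign. Of the untested IFN-β differences 359 stayed within the spread of the libraries and 21 did not, most of them with library totals. The cause was not tested. With 3 libraries against 3 and 12 in all, small differences of Akt1s1, Mlst8 and Ddit4, the genes with the fewest reads, have wide intervals.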
